A study of Drosophila melanogaster with 9 samples.

Results

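The vacuolar ATPase (V-ATPase) genes of Drosophila melanogaster were examined in nuclear RNA from photoreceptors expressing an shRNA against Set2 (shSet2), the methyltransferase that places the third methyl group on lysine 36 of histone H3. Members were all genes whose FlyBase symbol starts with Vha followed by a digit or a capital letter, a rule that used no measured value. The symbol table named 33 such genes, and 32 of them had a row among the 13947 genes of the count table. The remaining gene, Vha44, which encodes subunit C, had no row under its current identifier and was not analysed here. The count table holds 63 identifiers without a symbol, and no source used here pairs one of them with Vha44, so every family total below is without subunit C.

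The study used nuclei immuno-enrichment, in which nuclei tagged with a GFP-KASH fusion protein are captured from fly heads with an antibody, and compared shSet2 photoreceptors with control photoreceptors. Counts were analysed here for the shSet2 group alone, with 3 RNA libraries, so no difference caused by Set2 knockdown could be measured. The flies were males, mutant for w and carrying the ry[506] allele, with the nuclear tag UAS-GFP-Msp300KASH at attP2, the driver rh1-GAL4 on the same chromosome, and UAS-siSet2. They were raised at a 12 h light and 12 h dark cycle and collected 10 days after eclosion at zeitgeber time 6 h. The rh1-GAL4 driver is active from late pupal life in the outer photoreceptors, so both the nuclear tag and the shRNA were confined to those cells by design, and the shRNA was a single RNAi line. Whether the 3 libraries came from separate cultures of flies is not given in the sources used here, so the spread between them may be partly technical.

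The V-ATPase is a rotary proton pump that acidifies lysosomes, endosomes and synaptic vesicles. Its cytosolic V1 sector hydrolyses ATP and turns a central stalk, and the stalk rotates a ring of proteolipids in the membrane-bound V0 sector, which carries protons across the membrane. In neurons the proton gradient that it builds drives the loading of neurotransmitter into synaptic vesicles. In the fly, many subunits are encoded by several paralogous genes, and a number of these paralogs are known for transcription in the testis.

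The libraries held 3657491, 3794547 and 4960498 counts in replicates 1, 2 and 3. Set2 itself had 313, 370 and 369 counts in these libraries, which gives its level but is no check of the knockdown without control libraries. All 9 genes listed as markers of outer photoreceptors were detected, with a summed level of 65200 to 68110 CPM (counts scaled to a common library total). The sums were 36.5 to 51.2 CPM for 4 opsin genes of inner photoreceptors and 223 to 264 CPM for 5 glial markers. They were 89.2 to 123 CPM for 4 markers of other neurons and 898 to 1193 CPM for 4 fat body markers. Photoreceptor genes thus carried the dominant marker signal. Whether all 9 are confined to outer photoreceptors was not tested, so their sum does not separate outer from inner cells. Of 4 testis markers none was detected and 2 had no count. A gene was called detected with at least 10 counts in every library, and levels are CPM on totals scaled by TMM factors of edgeR, which balance the libraries.

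Detection divided the V-ATPase genes sharply. Of the 32 members, 16 were detected (50.0%), a share not far from the 41.6% of all genes that were. Another 14 members (43.8%) had at most 3 counts in every library, against 38.2% of all genes. Only Vha100-2 and VhaM9.7-b lay between these limits. In bulk nuclei, fewer cells expressing a gene and less RNA per cell cannot be told apart, so a low count may come from either. Detected markers of glia, other neurons and fat body had mean levels between 3.78 and 646 CPM. Whether low counts of members came from such cells was not tested. Of the 14 members with at most 3 counts, 7 had no count in any library: Vha68-3, Vha16-2, Vha16-3, Vha16-5, VhaPPA1-2, VhaAC39-2 and VhaM9.7-d. The other 7 had 1 or 2 counts at most in any library, and all 14 together summed to 13 counts over the 3 libraries. These genes were not detectable at this depth, where 3 counts correspond to 0.813, 0.794 and 0.608 CPM.

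**Figure D1:**
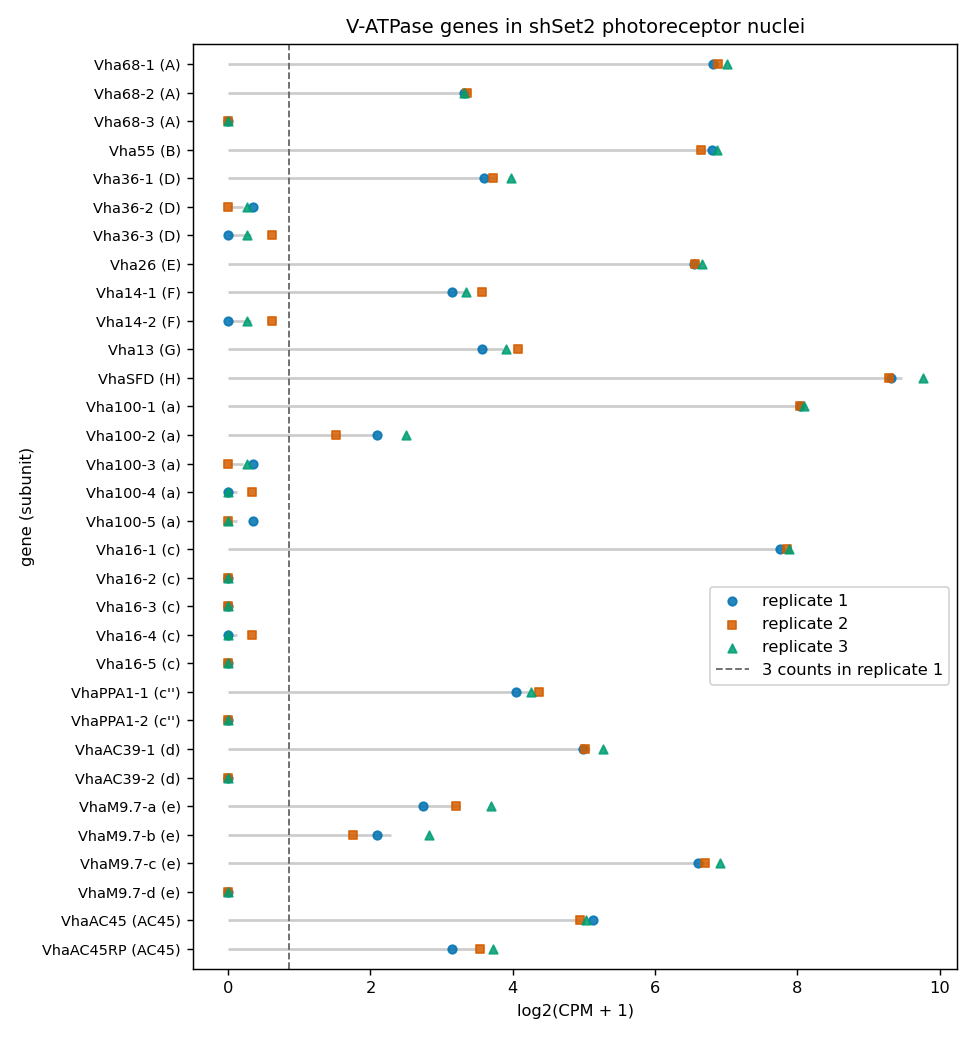
Levels of the 32 V-ATPase genes with a row of counts, as log2(CPM + 1) on the horizontal axis, with 1 symbol per shSet2 library, a grey line up to the log2 value of the mean CPM, and a dashed line at 3 counts in replicate 1. The 16 detected genes and the 14 genes with at most 3 counts form separate sets, with Vha100-2 and VhaM9.7-b between them.

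Each subunit with a row had at least 1 detected gene. Subunits B, E, G and H have a single gene each, and that gene was detected. Among the other 9 families, counted with the accessory AC45 genes, 6 had exactly 1 detected gene, and 3 had 2 detected genes (subunits A and e, and AC45). To ask which paralog supplied the RNA of each subunit, the share of each gene in its family was computed on counts per kb of gene span. Plain counts of genes of unequal length are not directly comparable. The gene span includes introns, and nuclear RNA contains unspliced transcripts. Whether intronic reads were counted is not given, so the span may not be the length that was counted, and levels per kb are uncertain to that extent. The same gene led its family in 3 of 3 libraries in all 9 families, on the per kb scale and on plain counts.

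In the V1 sector, subunit A binds and hydrolyses ATP, and it is encoded by Vha68-1, Vha68-2 and Vha68-3. Vha68-1 (FBgn0265262, 2L:13000770-13004107) had 412, 443 and 629 counts, or 112, 117 and 127 CPM, in replicates 1, 2 and 3. Vha68-2 (FBgn0263598, 2L:12974322-12978607) had 33, 35 and 44 counts, or 8.94, 9.26 and 8.92 CPM. Vha68-3 had none. The ranges of Vha68-1 and Vha68-2 did not approach each other in any library, and Vha68-1 was 16.9 ± 1.28 times as high as Vha68-2 in CPM per kb (SD, n = 3). Vha68-1 therefore made up 94.4% ± 0.387 of the family per kb and 92.9% ± 0.482 of its counts (SD, n = 3). The 95% Wilson intervals of the count share were 89.8% to 94.7%, 90.0% to 94.7% and 91.3% to 95.1% in the 3 libraries, and they cover counting error only. The family's genes are neighbours on 2L, where Vha68-3 starts 178 bp from the end of Vha68-2, while Vha68-1 lies 22.2 kb away. RNA of Vha68-2 was thus detected beside a neighbour and paralog that had no count, and the cells it came from were not tested. How reads shared by similar paralogs were assigned is not given in the sources used here, so the low level of Vha68-2 beside Vha68-1 is uncertain to that extent.

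Subunit B, the other nucleotide-binding subunit of the V1 ring, is encoded by Vha55 alone. Vha55 had 111, 98.9 and 116 CPM in replicates 1, 2 and 3. Vha68-1, which alternates with Vha55 in the assembled ring, stood at 1.34 ± 0.108 times the level of Vha55 in CPM per kb (SD, n = 3).

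Subunits D and F form the central stalk that turns inside the ring. Vha36-1 (subunit D) had 11.1, 12.2 and 14.8 CPM, whereas its paralogs Vha36-2 and Vha36-3 had at most 2 counts in any library. Vha36-1 made up 97.7% ± 0.649 of subunit D per kb. Vha36-2 lies 745 bp from Cam, the calmodulin gene, which had 9654, 9558 and 11288 counts, so Vha36-2 was near zero next to one of the abundant genes of these nuclei. Vha14-1 (subunit F) had 7.86, 10.8 and 9.12 CPM, and made up 99.2% ± 0.872 of its family per kb beside Vha14-2, which had 0, 2 and 1 counts (SD, n = 3).

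Subunits E and G build the peripheral stalks that hold the ring still, and each has 1 gene. Vha26 (subunit E) had 92.1, 93.6 and 101 CPM. Vha13 (subunit G) had 10.8, 15.9 and 14.0 CPM. Per kb, Vha26 and Vha55 were at nearly the same level, with a ratio of Vha55 to Vha26 of 1.01 ± 0.066, while Vha13 was at 9.91 ± 1.86 CPM per kb against 26.6 ± 1.24 CPM per kb for Vha26 (SD, n = 3). The peripheral stalk genes thus differed by more than their spread.

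Subunit H, which in yeast is known to hold back ATP hydrolysis in V1 that has come off the membrane, is encoded by VhaSFD. VhaSFD (FBgn0027779, 2L:16722883-16727826) had 2339, 2356 and 4279 counts, or 634, 623 and 867 CPM, in replicates 1, 2 and 3. Replicate 3 was above the other two, which were close together. VhaSFD alone took 38.1%, 37.0% and 43.2% of all V-ATPase counts. At 143 ± 27.9 CPM per kb it stood 5.34 ± 0.733 times above Vha55, 4.01 ± 0.523 times above Vha68-1 and 14.8 ± 3.39 times above Vha13 (SD, n = 3). With no length correction these ratios were 6.50 ± 0.891, 5.93 ± 0.775 and 53.2 ± 12.2 (SD, n = 3), so the distance to Vha13, a short gene, depends strongly on the length used. It ranked 82nd of 5758 detected genes with a gene span in CPM per kb, above 98.6% of them. Inside its span lies the microRNA gene mir-1006, and any reads from the miRNA precursor could not be separated from those of VhaSFD.

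In the V0 sector, subunit a provides the proton channels beside the ring and, in yeast and animals, helps to determine to which membrane the pump is sent. It has the widest choice of genes together with subunit c, with 5 paralogs each. Vha100-1 (FBgn0028671, 3R:29131193-29137980), the paralog known for its role in fly neurons, including photoreceptor synapses, had 965, 992 and 1340 counts, or 261, 262 and 272 CPM. Vha100-2 had 12, 7 and 23 counts, and the paralogs Vha100-3, Vha100-4 and Vha100-5 had 0 or 1. Vha100-1 made up 98.8% ± 0.367 of subunit a per kb, and Vha100-2 made up 0.926% ± 0.380 (SD, n = 3). The ratio of Vha100-1 to Vha100-2 per kb was 105, 185 and 75.9 in the 3 libraries, a wide spread on few counts of Vha100-2. Vha100-2 shares 2175 bp of its span with Vti1b, which itself had 1, 6 and 7 counts, and Vha100-3 lies inside sano, which had 32, 17 and 29 counts. Strandedness is not given in the sources used here, so the low counts of Vha100-2 are uncertain.

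Subunit c is the proteolipid of the rotating ring, and c'' is a related ring subunit. Vha16-1 had 796, 871 and 1155 counts, or 216, 230 and 234 CPM, whereas the paralogs Vha16-2, Vha16-3, Vha16-4 and Vha16-5 had 1 count among them, from Vha16-4 in replicate 2. VhaPPA1-1 (subunit c'') had 15.4, 19.6 and 18.0 CPM, and VhaPPA1-2 had no count. In these 2 families a single gene thus carried nearly all counts. For VhaPPA1-2 a count of 0 allows, at 3 counts of the family's total, a share of up to 5.26%, 4.05% and 3.37% in replicates 1, 2 and 3, and the upper 95% Wilson limits were 6.31%, 4.93% and 4.14%. VhaPPA1-2 lies 2052 bp from VhaPPA1-1, so neighbouring position did not go with detection in this family either.

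Subunit d couples the ring to the central stalk. VhaAC39-1 had 30.6, 31.2 and 37.5 CPM, and VhaAC39-2 had no count, which at 3 counts of the family's total allows a share of up to 2.65%, 2.54% and 1.62% (upper 95% Wilson limits 3.29%, 3.15% and 2.03%). VhaAC39-1 was thus the one gene detected for this subunit, and it was highest in replicate 3.

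Subunit e, a small membrane protein of V0, was the subunit whose leading gene is least certain. VhaM9.7-c (FBgn0028664, 3L:4186018-4186865) had 355, 390 and 589 counts, or 96.2, 103 and 119 CPM. VhaM9.7-a had 21, 31 and 59 counts, VhaM9.7-b had 12, 9 and 30 counts, and VhaM9.7-d had none. By these values VhaM9.7-c made up 90.0% ± 2.34 of the family per kb, VhaM9.7-a 7.96% ± 1.85 and VhaM9.7-b 2.02% ± 0.742 (SD, n = 3). However, the whole 848 bp span of VhaM9.7-c lies inside the gene Teh2, which had 2114, 2275 and 3905 counts, and also inside CG18675, which had 14, 9 and 6. The counts of VhaM9.7-c came to 16.8%, 17.1% and 15.1% of those of Teh2, and Teh2 and VhaM9.7-c were both highest in replicate 3. Reads of Teh2 and of VhaM9.7-c cannot be told apart here. With VhaM9.7-c left out, a choice made after seeing the data, VhaM9.7-a led the family with 79.8% per kb and 69.1% of the counts, ahead of VhaM9.7-b by 4.25 ± 1.64 times per kb (SD, n = 3).

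The accessory subunit AC45, a membrane protein that associates with V0 (ATP6AP1 in mammals), divided between 2 detected genes more evenly than the other families, except subunit e with VhaM9.7-c left out, whose leading share of counts was lower still. VhaAC45 had 33.9, 29.9 and 31.6 CPM, and VhaAC45RP had 7.86, 10.6 and 12.2 CPM. VhaAC45 was above VhaAC45RP in every library, and made up 71.0% ± 5.38 of the pair per kb and 75.7% of its counts (SD, n = 3). The share was 77.1% in replicate 1, above both others. Both genes were detected, and the ratio of VhaAC45 to VhaAC45RP per kb was 2.53 ± 0.725.

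**Figure D2:**
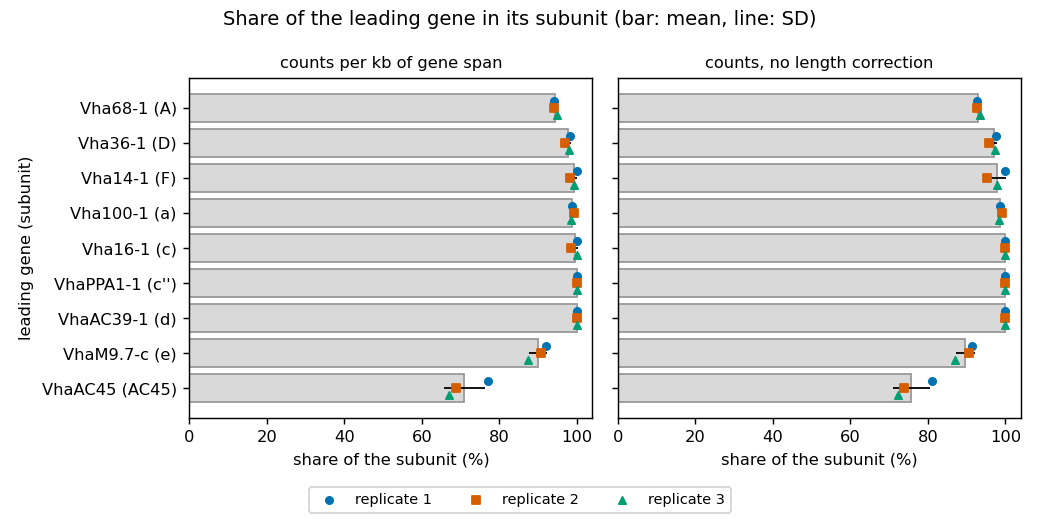
Share of the leading gene in each of the 9 families with more than 1 gene, in % of the family's counts per kb of gene span (left) and of its plain counts (right), with bars at the mean and lines at the SD over 3 shSet2 libraries (symbols). The leading share lies at 94.4% per kb or above in 7 families, at 90.0% for VhaM9.7-c, whose counts overlap Teh2, and at 71.0% for VhaAC45.

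Products of V1 and V0 join in one complex, but their genes were not at one level. Among the 16 detected members the level per length ran over a wide range, from 143 ± 27.9 CPM per kb for VhaSFD to 2.11 ± 0.0446 CPM per kb for Vha68-2 (SD, n = 3). The place of VhaM9.7-c in this order is uncertain, since its reads cannot be told apart from those of Teh2. After VhaSFD and VhaM9.7-c, whose ranges over the 3 libraries overlapped, came Vha100-1 at 39.1 ± 0.820 and Vha68-1 at 35.6 ± 2.41 CPM per kb, each without overlap with the next in order. Vha16-1, Vha55 and Vha26 followed at 28.9 ± 1.24, 26.7 ± 2.16 and 26.6 ± 1.24 CPM per kb, and neighbours among these did not differ beyond their spread. A second set of 7 genes, VhaAC39-1, VhaAC45, Vha14-1, Vha36-1, VhaM9.7-a, VhaPPA1-1 and Vha13, lay between 14.9 and 9.91 CPM per kb, and each of them overlapped the next. VhaAC45RP and Vha68-2 came last without overlap. The order without length correction differed: VhaSFD remained first at 708 CPM, Vha100-1, Vha16-1, Vha68-1 and Vha55 followed at 265, 227, 119 and 109 CPM, VhaM9.7-c was sixth at 106.2 CPM, and VhaM9.7-a was last at 8.62 CPM. The ring gene Vha16-1 stood at 28.9 CPM per kb and the a subunit gene Vha100-1 at 39.1 CPM per kb, a ratio of Vha100-1 to Vha16-1 of 1.35 ± 0.044 (SD, n = 3).

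Where the detected V-ATPase genes stood among all detected genes depended on the length correction. Per kb of gene span, 15 of the 16 lay above the median of all detected genes, but with no length correction 9 did and 7 lay below. Per kb their median was 14.6 CPM per kb, against 5.39 CPM per kb over the 5758 detected genes with a span. With no length correction the medians were 32.5 CPM for the detected members and 18.6 CPM for all 5802 detected genes. These comparisons are descriptions, since members enter them only through the count minimum.

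**Figure D3:**
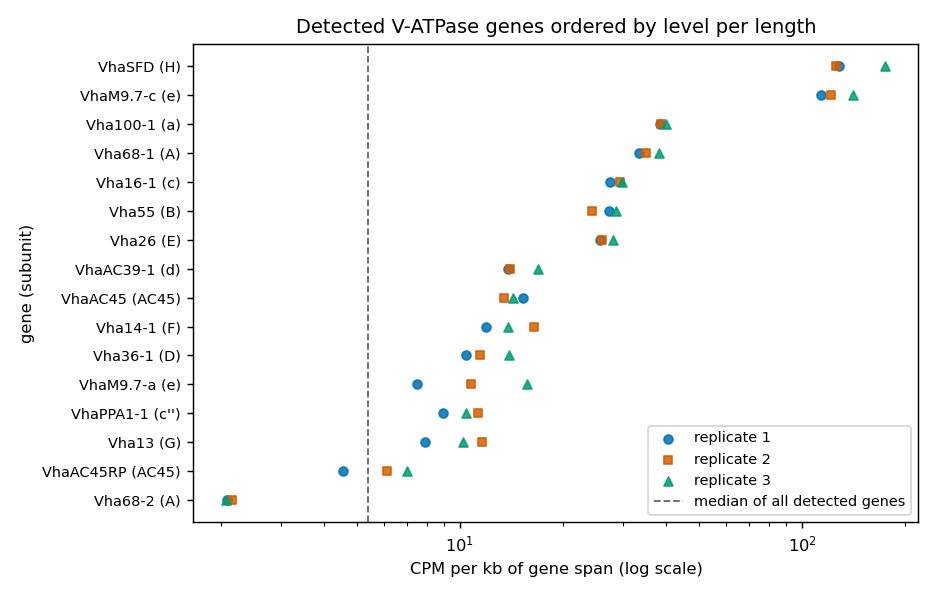
Levels of the 16 detected V-ATPase genes in CPM per kb of gene span on a log axis, with 1 symbol per shSet2 library and genes ordered by their mean. On this scale VhaSFD and VhaM9.7-c, a gene of 848 bp whose counts overlap Teh2, lie apart at the top. Vha68-2 at the bottom is the one gene below the median of all detected genes (dashed, 5.39 CPM per kb), while 7 are below the median with no length correction. The 7 genes from VhaAC39-1 to Vha13 overlap.

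Summed over the family, the V-ATPase genes reached 1661, 1683 and 2006 CPM in replicates 1, 2 and 3, which is 0.168%, 0.168% and 0.200% of all counts. The 95% Wilson intervals of these shares were 0.164% to 0.172%, 0.164% to 0.172% and 0.196% to 0.203%, so replicate 3 lay above the other libraries beyond counting error. The V1 genes summed to 1076 ± 158 CPM, the V0 genes to 665 ± 35.9 CPM and the accessory pair to 42.0 ± 1.66 CPM (SD, n = 3). Most of the excess of replicate 3 lay in VhaSFD. Without VhaSFD, a choice made after seeing the data, the sum was 1027, 1059 and 1139 CPM, and replicate 3 was 1.11 and 1.08 times as high as replicates 1 and 2, against 1.37 and 1.39 times for VhaSFD alone.

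To ask which V-ATPase genes differed between replicate libraries by more than counting error, counts of every detected gene were tested by chi-square against the scaled totals, with Benjamini-Hochberg adjustment over 5802 genes. The counts of 3 of 16 detected members differed (18.8%), against 25.1% of all detected genes. These shares do not compare how variable the genes were, since the test passes more readily at high counts. VhaAC45RP did not pass with a 1.55-fold difference on 129 counts, while VhaM9.7-c passed with 1.24-fold on 1334 counts. These 3 genes were VhaSFD (adjusted p = 1.14e-49), VhaM9.7-c (adjusted p = 0.0163) and VhaM9.7-a (adjusted p = 0.0360), and all were highest in replicate 3. Reads of VhaM9.7-c cannot be told apart from those of Teh2, so its call is uncertain. Among the 16 detected members VhaM9.7-a had the widest range in fold. It had 5.69, 8.20 and 12.0 CPM, a 2.10-fold difference between its highest and lowest library. In contrast, Vha100-1 varied by 1.04-fold and Vha68-2 by 1.04-fold. The highest and lowest library differed by at most 1.5-fold in 14 of the 16 detected members, with a median of 1.23-fold. The same values over all detected genes were not computed, so these describe the members alone. The calls rest on replicate 3, as none of the 16 passed without it by the chi-square test, at an adjusted or an unadjusted p under 0.05, while 9.02% of all genes tested did at the adjusted threshold. VhaSFD alone passed without replicate 1.

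By the SD between libraries, the replicates of V-ATPase genes were about as close as those of all detected genes. The 2 sets were not matched for level, with a median of 32.5 CPM for the detected members and 18.6 CPM for all detected genes. The median SD of log2(CPM + 1) was 0.16 for the detected members and 0.18 for all detected genes. The biological coefficient of variation, estimated with edgeR, had a median of 0.130 for the detected members and 0.139 for all detected genes. That estimate draws each gene towards the other genes, with a common value of 0.132. Close medians are therefore partly built in and do not compare the members with other genes. The members leaned in one direction, however. Of the 16 detected members, 11 were highest in replicate 3, a larger share than the 34.5% of all detected genes. Lowest in replicate 1 were 12 of the 16, also a larger share than the 34.1% of all detected genes. Replicate 3 also had the largest total of counts and the highest summed level of 9 lysosomal genes, at 596 CPM against 510 and 564 CPM in replicates 1 and 2. Single lysosomal genes were mixed. Lamp1, Npc1a, Npc2a, CtsB and cathD were highest in replicate 3, while spin, CtsL1, ClC-b and ClC-c were highest in replicate 2. Both spin and CtsL1 were lowest in replicate 3. The summed hemocyte markers were at 23.6, 19.3 and 23.9 CPM in replicates 1, 2 and 3, so replicate 3 hardly differed from replicate 1. Most of that sum was Hml, at 20.3, 18.0 and 22.9 CPM. NimC1 and Sr-CI, both with few counts, were highest in replicate 1. Fat body markers went both ways. Over replicates 1, 2 and 3, Lsp2 rose, with 10.0, 25.4 and 44.8 CPM. By contrast, apolpp fell over these libraries, with 776, 618 and 543 CPM, and so did FASN1, with 407, 330 and 310.5 CPM. The summed fat body level fell as well, from 1193 to 974 to 898 CPM. Replicate 3 was not the highest for the summed markers of photoreceptors, glia, other neurons, fat body or muscle. Single genes of the list for outer photoreceptors were mixed. In replicate 3, ninaE was highest, at 9492 CPM against 7371 and 8132 CPM in replicates 1 and 2, and so were Arr1, Arr2 and chp. Highest in replicate 2 were trp, norpA and ninaC, and highest in replicate 1 were trpl and inaD. Muscle markers were highest in replicate 1, at 50.7 CPM against 13.2 and 18.8 CPM in replicates 2 and 3. The part of depth or of other cells in the difference of replicate 3 was not tested.

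**Figure D4:**
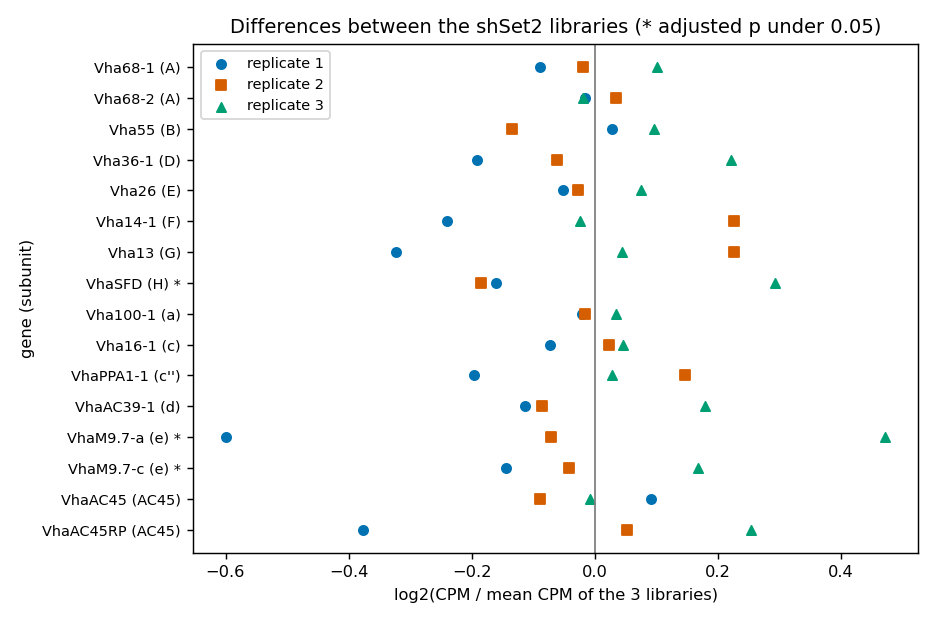
Level of each detected V-ATPase gene in each shSet2 library relative to its mean over the 3 libraries, as log2 of the CPM ratio, with asterisks on the 3 genes whose counts differed between libraries by chi-square. VhaSFD, VhaM9.7-a and VhaM9.7-c are highest in replicate 3, and Vha68-2 and Vha100-1 lie close to 0 in every library.

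Genes that work with the pump were also detected. ATP6AP2, a further accessory protein of V0, had 18.4, 24.1 and 21.7 CPM, and per length 10.9 ± 1.45 CPM per kb (SD, n = 3), near VhaPPA1-1 at 10.2 ± 1.21 CPM per kb. All 3 genes of the RAVE complex, which in yeast rejoins V1 and V0, were detected: Rbcn-3A at 220 ± 21.2 CPM, Rbcn-3B at 96.6 ± 17.5 CPM and rogdi at 105.5 ± 14.8 CPM (SD, n = 3). Per length these 3 genes lay at 12.2 to 17.8 CPM per kb, within the range of the detected subunit genes, and unlike rogdi, which was highest in replicate 3, both Rbcn-3A and Rbcn-3B were lowest there. Mitf, a transcription factor known to activate V-ATPase genes in the fly, stood at 73.4 ± 8.08 CPM, but at 2.865 ± 0.316 CPM per kb (SD, n = 3). The level of Mitf per kb was below the median of all detected genes, 5.39 CPM per kb. Of 6 vesicular transporter genes, whose products depend on the proton gradient of the pump, 5 were detected, among them VAChT and VGlut, which are also in the list of other neurons. Another was lovit, known for histamine transport in fly photoreceptors, with 1693, 1843 and 1446 CPM. Per kb of gene span lovit stood at 3.83 ± 0.461 CPM per kb (SD, n = 3). That is below the median of all detected genes, so its place depends strongly on the length used. Plasma membrane V-ATPases are known from Malpighian tubules, and neither of the 2 matched marker genes for such epithelia was detected, with a sum of at most 1.08 CPM.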

How the data were processed

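Nuclear RNA of immuno-enriched photoreceptor nuclei (10 ng per library, Ovation SoLo kit, per the labels) was sequenced in 3 shSet2 libraries. The authors deposited whole-number counts per gene without normalization. The submitters' processing notes name Trimmomatic, Bowtie2, STAR, SAMtools, deepTools and DESeq2, and the builds dm6 and BDGP6. The counter, its annotation, strandedness and treatment of overlapping or shared reads are not given in the sources used here. Since the counts come from nuclear RNA, intronic reads may or may not have been included. 1 blank row was left out, and there were 0 columns of other samples. RNA libraries of control photoreceptors and ATAC-seq libraries were not analysed here.

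Symbols were matched for 13884 of 13947 identifiers. Gene spans and coordinates are from the RefSeq table of Release 6 plus ISO1 MT, with 13871 symbols matched. Levels per kb were planned on coding length, which was not used here since no protein table was given, so the gene span replaced it. Promoter motifs and protein identity were likewise not analysed.

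CPM were computed on all counts with TMM factors of 1.01, 0.996 and 0.995 from genes with at least 10 counts in every library (edgeR 4.0.16, R 4.3.3, which also gave the dispersion with an intercept alone). Shares, Wilson intervals and the chi-square test of counts, adjusted over all detected genes at a threshold of 0.05, were computed in Python 3.11.15 with scipy 1.17.1, numpy 2.4.6 and pandas 2.3.3. Figures were drawn with matplotlib 3.10.9. Scripts were tested on simulated data. With 1 group there was no test between groups, and the p-values measure only the spread between these libraries. Intervals and floors cover counting error only.

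The genes named are all members by the symbol rule, together with lists for accessory, assembly, lysosomal and vesicle transporter genes and cell type markers. The members and lists were chosen with earlier results of these data known. Alternatives were DESeq2 1.42.0 size factors, unscaled totals, other count minimums, a pseudocount of 0.1 in place of 1, no length correction, and each replicate left out. Leaving out VhaSFD or VhaM9.7-c was added after seeing the data.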

Additional observations from a re-analysis of the deposited data

How the results depend on the processing

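No paired analysis was possible because there was 1 group, so no groups shared replicate numbers. Each family kept its leading gene with no length correction, on counts summed over libraries and with each replicate left out. Summing libraries or leaving 1 out could not change the leader, since each was ahead in every library. VhaM9.7-a led subunit e when VhaM9.7-c was left out. With no length correction the leading shares were 92.9% for subunit A, 96.9% for D and 97.7% for F, moves beyond 1 SD. With any count in any library taken as detection, 25 members were detected in place of 16. The share of all genes at that setting was not computed. Without VhaSFD the summed level was 1075 CPM in place of 1783 CPM. Leaving out 1 replicate at a time, the median SD of log2(CPM + 1) ran from 0.0786 to 0.183, lowest without replicate 3, and 0 to 3 members differed between libraries: 0 without replicate 3, 1 without replicate 1 (VhaSFD), and the same 3 genes without replicate 2. The summed level ran from 1676 to 1838 CPM. No mean CPM of the 18 members above 3 counts moved by more than 1 SD under 36 alternatives with another scaling. Depth limits the members with at most 3 counts, and paralog shares in the smaller families. Coding length, promoter motifs and protein identity were not run.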

Other observations

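Lysosomal genes, whose products work in the acid that the V-ATPase makes, were broadly detected in shSet2 photoreceptor nuclei. All 9 genes of the list that matched a symbol were detected, with mean levels of 11.4 to 158 CPM. Per length the highest was Npc2a, which binds sterols in the lysosome, at 35.6 ± 13.9 CPM per kb, and the lowest was cathD, a protease gene, at 3.23 ± 0.103 CPM per kb (SD, n = 3). Npc1a, which carries sterols out of the lysosome, had 140, 157 and 178 CPM in replicates 1, 2 and 3, and like Npc2a was highest in replicate 3. CtsD and Cp1 matched no symbol and cathD was measured under its own name. Of 8 matched genes for nutrient sensing at the lysosome, 5 were detected, at 6.52 to 13.3 CPM. Among these were the small GTPase genes RagA-B and RagC-D, and the Lamtor genes that anchor them were uneven, with Lamtor1 at 7.69 ± 0.462 CPM (SD, n = 3) and Lamtor2 at no count in any library.

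The 32 V-ATPase genes were spread over 5 chromosome arms, and detected and undetected genes occurred on each. Arm 3R held 12 of them with 6 detected, 2R 7 with 4 detected, 2L 6 with 3 detected, 3L 5 with 2 detected and X 2 with 1 detected.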
